A study of Rattus norvegicus with 30 samples.

Results

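Gfap, Vim, Serpina3n and S100b are used as markers of reactive astrocytes, and their mRNA was followed after traumatic brain injury (TBI) in 3 areas of the rat brain, the perilesional cortex, the thalamus and the hippocampus. They were chosen by gene identifier: Gfap is ENSRNOG00000002919, Vim is ENSRNOG00000018087, Serpina3n is ENSRNOG00000010410 and S100b is ENSRNOG00000001295. These were 4 of the 26404 genes in the count table of each brain area. For each gene the question was whether its level differed between TBI and sham operation in each area, whether that difference was unequal between areas, and how the sham-operated levels compared between areas.

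The animals were adult male Sprague-Dawley rats, with no transgene or drug in either group. Rats 6 to 10 had lateral fluid percussion injury, a pressure pulse to the exposed dura, and rats 1 to 5 were sham-operated with the same anesthesia and surgery and no pulse. All tissue was taken 3 months after the operation, and each rat gave 1 library of each area, so 30 libraries fell into 6 groups of 5. The area called hippocampus was dissected as dentate gyrus with part of CA3 by the methods of the study and is called dorsal hippocampus in the sample labels. The design has 1 late time point and 1 sex.

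Astrocytes respond to brain injury by enlarging their processes and changing their gene expression, a state called reactive gliosis. Gfap (glial fibrillary acidic protein) and Vim (vimentin) encode intermediate filament proteins that assemble into the astrocyte cytoskeleton, and vimentin is also made by endothelial, ependymal and other cells. Serpina3n encodes a secreted serine protease inhibitor that rises in rodent glia after many kinds of injury. S100b encodes a calcium-binding protein of astrocytes, also found in some oligodendrocyte lineage cells, which is released outside the cell as well. In pieces of tissue, more cells of a type and more RNA per cell cannot be told apart.

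Gfap and Vim are the genes that the injury results turn on, so their promoters are printed, as 250 bases before to 50 bases after the gene's start in RefSeq (build GRCr8; the counts were made on RN5). All 4 genes were matched by symbol in that table of 33469 promoters. The Gfap promoter lies at chr10:88361612-88361911 on the minus strand and the Vim promoter at chr17:81577011-81577310 on the plus strand. Capitals mark the matches to 4 motifs that were searched on both strands.
Gfap: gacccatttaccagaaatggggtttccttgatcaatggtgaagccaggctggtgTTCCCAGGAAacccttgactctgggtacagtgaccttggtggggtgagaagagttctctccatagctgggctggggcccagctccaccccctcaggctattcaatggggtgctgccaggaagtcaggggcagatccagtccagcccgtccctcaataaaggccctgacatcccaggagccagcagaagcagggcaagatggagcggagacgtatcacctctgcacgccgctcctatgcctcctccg
Vim: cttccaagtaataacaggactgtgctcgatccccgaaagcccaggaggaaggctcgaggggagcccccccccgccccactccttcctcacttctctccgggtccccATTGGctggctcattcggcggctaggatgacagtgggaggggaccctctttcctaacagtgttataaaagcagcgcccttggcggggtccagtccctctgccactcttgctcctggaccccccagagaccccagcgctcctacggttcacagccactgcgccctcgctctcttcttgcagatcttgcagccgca
The motifs were TTCNNNGAA and TTCNNNNGAA, the letters that STAT factors bind with a spacer of 3 or 4 bases, TGANTCA, those of AP-1, and CCAAT, the CCAAT box. The Gfap promoter held 1 match, to TTCNNNNGAA at position -196 from the start, and 7.28% of all promoters in the table held that motif. In the Vim promoter the single match was a CCAAT box on the reverse strand at position -144, a motif found in 37.5% of all promoters. Of the promoters not printed, Serpina3n had 1 match to TTCNNNGAA at position -123 (8.87% of all promoters) and S100b had 3 CCAAT boxes. None of the 4 promoters matched TGANTCA (7.33% of all promoters). A match of letters is a description of the sequence and was not tested as a binding site.

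Sequencing depth was between 21992859 and 31799879 counts per library. Levels are given as CPM (the counts of a gene relative to all counts of its library) scaled by the TMM method within an area, and the test was edgeR's quasi-likelihood test fitted over all genes of an area, called at a Benjamini-Hochberg adjusted p under 0.05. The hippocampal libraries of rats 3 and 8 went against their labels at genes other than the 4. Of 39 such genes that differed more than 4-fold between rats 3 and 8 in both cortex and thalamus, 16 differed the opposite way by more than 2-fold in the hippocampus and 0 the same way, whereas each of the other 24 pairs of a sham-operated rat and a rat with TBI had at most 1 gene the opposite way. Most of the 39 genes also differed at least 2-fold between the other sham-operated and TBI rats in cortex or thalamus, by their medians. Of the 9 that did not, 7 differed the opposite way in the hippocampus and 0 the same way. Whether the 2 libraries were exchanged was not tested. The labels were kept as given, and hippocampal comparisons are given with and without these libraries. In the hippocampal libraries of sham-operated rats 4 and 5, the 10 most counted genes took 44.1% and 40.9% of the counts, against 9.95 to 16.4% in the other hippocampal libraries. The study's own analysis left out 2 sham-operated hippocampal libraries for low alignment without naming the rats, and whether these were rats 4 and 5 was not tested. The tables hold no gene names, so the prepared lists of astrocyte, microglial, neuronal, oligodendroglial and vascular markers were not analysed here, and neither were levels per gene length, so levels are compared within a gene only.

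In the perilesional cortex, Gfap and Vim rose several fold after TBI and S100b rose less, without any overlap between the groups. The Gfap level in sham-operated rats 1 to 5 was 472, 366, 284, 286 and 384 CPM, and in TBI rats 6 to 10 it was 2563, 2521, 2165, 1797 and 2233 CPM. The lowest TBI library thus lay far above the highest sham library. The means were 359 ± 78.0 CPM in sham and 2256 ± 310 CPM after TBI (SD, n = 5 each), a 6.29-fold rise (log2 fold change 2.65, SE 0.15, edgeR adjusted p = 1.32e-07). Gfap had the 3rd smallest p of the 17185 cortical genes tested and the 37th largest log2 fold change.

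Vim, the second filament gene, was at 70.8, 112, 74.5, 59.9 and 116 CPM in the cortex of sham-operated rats 1 to 5 and at 521, 486, 363, 333 and 303 CPM in TBI rats 6 to 10. Rats 6 and 7 were highest for both Vim and Gfap. The rise was 4.62-fold, from 86.8 ± 25.8 to 401 ± 96.8 CPM (SD, n = 5 each; log2 fold change 2.21, SE 0.22, edgeR adjusted p = 6.99e-05), the 79th largest log2 fold change in the cortex.

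S100b, the calcium-binding protein gene, moved much less. Its cortical level was 1050, 889, 1001, 1163 and 1157 CPM in sham-operated rats 1 to 5 and 1333, 1389, 1610, 1462 and 1482 CPM in TBI rats 6 to 10, and the groups did not overlap. The means were 1052 ± 115 and 1455 ± 105 CPM (SD, n = 5 each), a 1.38-fold rise (log2 fold change 0.47, SE 0.09, edgeR adjusted p = 0.00207). In the cortex, 13.6% of the genes tested had a larger log2 fold change than S100b. All 3 genes that could be tested were called higher and had every TBI library above every sham library, where 14.2% of all cortical genes were called higher and 10.2% did not overlap in that direction.

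**Figure D1:**
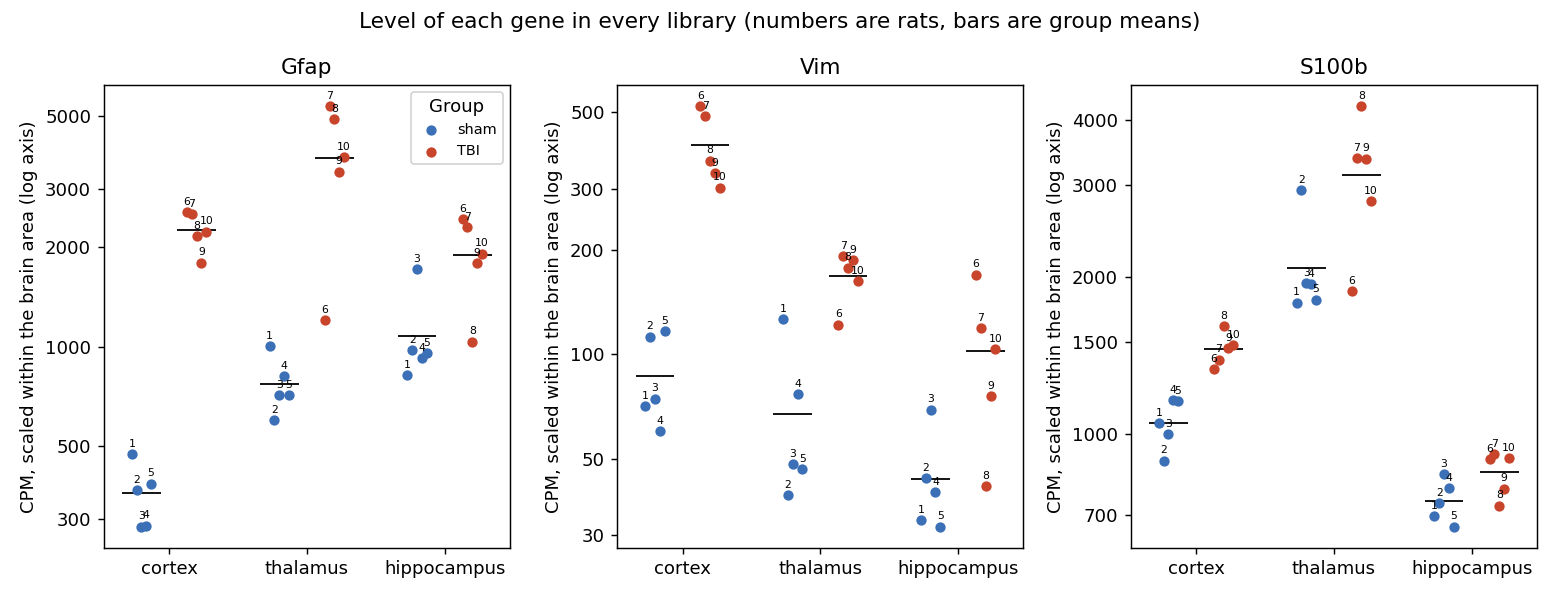
Level of Gfap, Vim and S100b in each of the 30 libraries, in CPM scaled within the brain area on a log axis, with points numbered by rat (blue sham, red TBI) and bars for group means of 5 rats. The cortical groups are apart for each gene, thalamic TBI rat 6 lies near the sham points, and for Gfap and Vim hippocampal sham rat 3 lies next to the TBI points and TBI rat 8 next to the sham points.

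In the thalamus, which is connected with the cortex and lies deeper in the brain, Gfap again rose several fold and Vim rose less, while S100b was not called. Gfap was at 1002, 598, 712, 814 and 713 CPM in sham-operated rats 1 to 5. In TBI rats 6 to 10 it was at 1202, 5368, 4890, 3394 and 3753 CPM. The groups did not overlap, but TBI rat 6 lay close to sham-operated rat 1 and far below the next TBI rat, rat 9. The means were 768 ± 152 and 3722 ± 1623 CPM (SD, n = 5 each), a 4.85-fold rise (log2 fold change 2.28, SE 0.31, edgeR adjusted p = 0.0166). This was the 18th largest log2 fold change and the 4th smallest p of 16605 thalamic genes.

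The thalamic Vim level was 126, 39.1, 48.2, 76.6 and 46.6 CPM in sham-operated rats 1 to 5 and 122, 192, 178, 187 and 163 CPM in TBI rats 6 to 10. Sham-operated rat 1 was just above TBI rat 6, and the other 4 TBI libraries were above every sham library. Vim was called 2.49-fold higher, from 67.4 ± 35.9 to 168 ± 28.2 CPM (SD, n = 5 each; log2 fold change 1.32, SE 0.28, edgeR adjusted p = 0.0249).

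S100b in the thalamus was at 1787, 2940, 1950, 1939 and 1812 CPM in sham-operated rats 1 to 5 and at 1883, 3388, 4264, 3377 and 2799 CPM in TBI rats 6 to 10. Rat 2 stood apart among the sham libraries, TBI rat 6 was within the sham range, and TBI rat 10 was below rat 2. The means were 2085 ± 483 and 3142 ± 877 CPM (SD, n = 5 each). The log2 fold change was 0.59 with a 95% interval of 0.16 to 1.02, and its adjusted p of 0.0972 by edgeR missed the threshold. It passed with DESeq2 (log2 fold change 0.59, adjusted p = 0.044), with limma's voom and quality weights (0.69, adjusted p = 0.0102) and in 1 edgeR fit of all areas (0.56, adjusted p = 0.00777). In the thalamus, 2 of the 3 tested genes were called higher where 3.77% of all genes were. Of the 3, only Gfap had every TBI library above every sham library, where 2.75% of all genes did not overlap in that direction. The same alternatives called Gfap (adjusted p 2.58e-10 with DESeq2, 0.00432 with voom and 3.19e-05 in the 1 edgeR fit) and Vim (adjusted p 0.000253, 0.00716 and 0.00509). Without rat 3, 5, 7 or 8, the edgeR adjusted p of Gfap was 0.058, 0.0607, 0.053 or 0.0545, with a log2 fold change still at or above 2.11 and an unadjusted p of 1.6e-05 to 3.96e-05. Vim lost its call without rat 3, 5, 7, 8 or 10, with adjusted p from 0.0634 to 0.0733 by edgeR and log2 fold changes of 1.21 to 1.34, and S100b gained one without rat 2 (0.75, adjusted p = 0.0435) or rat 6 (0.73, adjusted p = 0.0106). Over all genes, the number called in the thalamus fell from 934 to 0 without rat 3, 5, 7 or 8 and to 67 without rat 10, and was 2421 without rat 6.

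**Figure D2:**
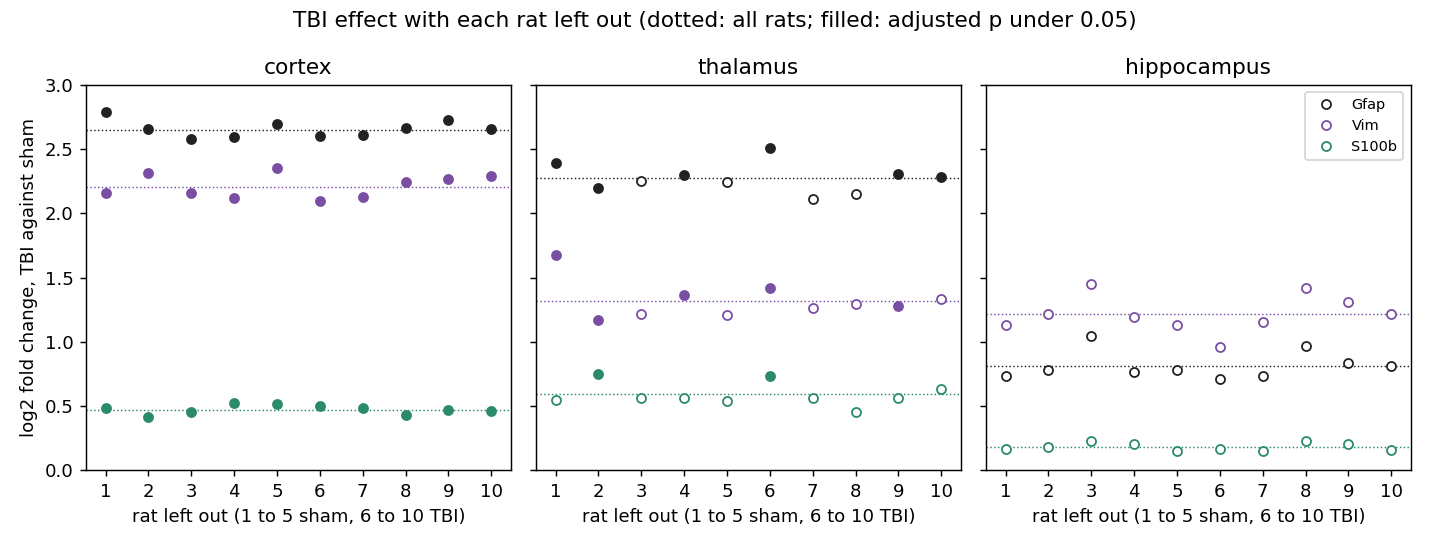
Log2 fold change of TBI against sham (y axis) for Gfap, Vim and S100b with each rat left out in turn (x axis), 1 panel per brain area. Dotted lines give the value with all rats and filled points an edgeR adjusted p under 0.05: all cortical points are filled, thalamic points vary, and no hippocampal point is filled.

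In the hippocampus with all 10 libraries, no gene of the set passed the test, and Gfap and Vim had higher means after TBI. Gfap was at 818, 974, 1721, 922 and 954 CPM in sham-operated rats 1 to 5 and at 2433, 2304, 1035, 1793 and 1915 CPM in TBI rats 6 to 10. The sham library of rat 3 stood near the TBI libraries, and the TBI library of rat 8 near the other sham libraries. The means were 1078 ± 365 and 1896 ± 549 CPM (SD, n = 5 each; log2 fold change 0.82, SE 0.27), with an unadjusted p of 0.0127 and an adjusted p of 0.506 by edgeR.

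Hippocampal Vim was at 33.2, 44.0, 69.2, 40.1 and 31.8 CPM in sham-operated rats 1 to 5. In TBI rats 6 to 10 it was at 170, 119, 41.6, 75.6 and 104 CPM. Rat 3 was again the highest sham library and rat 8 the lowest TBI library, inside the sham range. The log2 fold change was 1.22 (SE 0.39, edgeR adjusted p = 0.506), the 23rd largest of 16963 hippocampal genes, from 43.7 ± 15.1 to 102 ± 48.1 CPM (SD, n = 5 each).

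S100b in the hippocampus was at 696, 736, 837, 787 and 664 CPM in sham-operated rats 1 to 5 and at 893, 916, 729, 785 and 899 CPM in TBI rats 6 to 10. These groups overlapped as well, with rat 3 highest in sham and rat 8 lowest in TBI. The means were 744 ± 69.4 and 845 ± 82.7 CPM (SD, n = 5 each), and the log2 fold change of 0.18 had a 95% interval of -0.01 to 0.38 (edgeR adjusted p = 0.607). Of all hippocampal genes, 0% were called higher by edgeR (0 of 16963, with 1431 genes in either direction at an unadjusted p under 0.05) and 0.519% had every TBI library above every sham library. DESeq2 called 41 genes, and none of the 3.

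Without the libraries of rats 3 and 8, 4 against 4, the filament genes were called in the hippocampus. Gfap then rose from 889 ± 67.3 to 2048 ± 297 CPM (SD, n = 4 each; log2 fold change 1.20, SE 0.12, edgeR adjusted p = 0.000178). Vim rose from 36.1 ± 5.59 to 114 ± 38.4 CPM (SD, n = 4 each), 3.14-fold (log2 fold change 1.65, SE 0.23, edgeR adjusted p = 0.0112). Neither overlapped between groups. S100b had a log2 fold change of 0.28 (SE 0.10, edgeR adjusted p = 0.232), and its lowest TBI library, at 762 CPM, was just under its highest sham library, at 763 CPM. In this comparison 1.45% of 16960 genes were called higher and 5.28% had every TBI library above every sham library. Rat 3 was the highest sham and rat 8 the lowest TBI library for each of the 3 genes, so leaving them out raises these fold changes by construction. Without sham-operated rats 4 and 5, whose most counted genes took a larger share, the log2 fold changes were 0.70 for Gfap, 1.07 for Vim and 0.16 for S100b, and none was called. Without rats 3, 4, 5 and 8 together, Gfap was called (1.24, edgeR adjusted p = 0.0124) and Vim was not (1.61, edgeR adjusted p = 0.101).

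**Figure D3:**
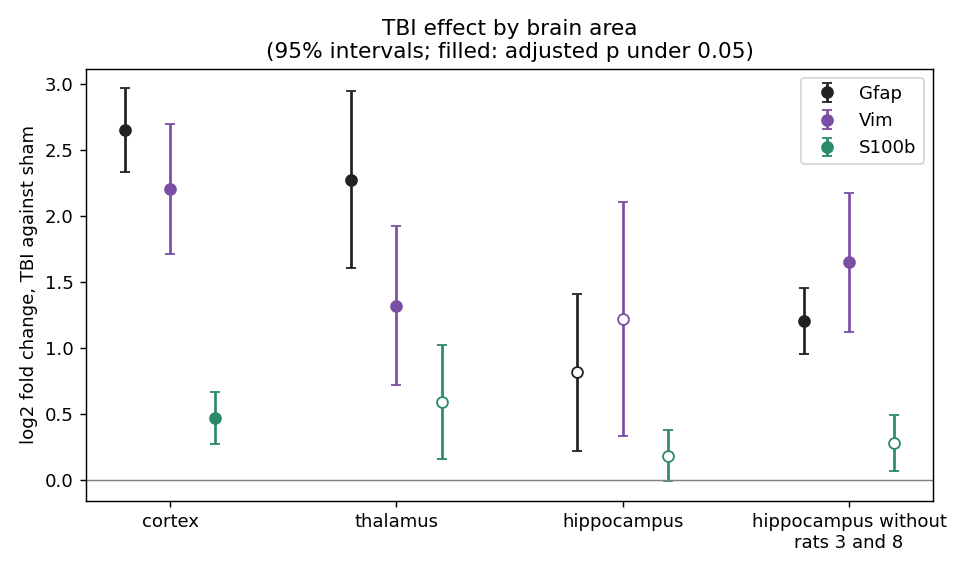
Log2 fold change of TBI against sham (y axis) for Gfap, Vim and S100b by brain area, with 95% intervals from edgeR and filled points for an adjusted p under 0.05. Gfap ranges from 2.65 in the cortex to 0.82 in the hippocampus with all libraries, and the hippocampal intervals are shown both with and without rats 3 and 8.

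Serpina3n, the protease inhibitor gene, could not be followed in these tables. Its row held 0 counts in all 10 cortical and all 10 thalamic libraries, and in the hippocampus it held 2, 2, 1, 3 and 3 counts in sham-operated rats 1 to 5 and 0, 0, 1, 4 and 0 counts in TBI rats 6 to 10. The hippocampal sum was 11 counts in sham and 5 counts after TBI. A count of 0 allows up to 3 counts, which is 0.118 CPM in the shallowest cortical library and 0.136 CPM in the shallowest thalamic library, covering counting error only. The gene passed the filter on low counts in no area, so it has no test and no fold change. Whether its reads were counted under another identifier was not tested, and no level in the tissue is drawn from these values.

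The TBI effects were compared between areas in 1 fit of all 30 libraries. For Gfap, the log2 fold change in the cortex exceeded that in the hippocampus by 1.81 (SE 0.38, 95% interval 1.03 to 2.59, edgeR adjusted p = 0.0243). This was the only called difference among 9 (3 genes in 3 pairs of areas). With the rat as a block, as all areas came from the same rats, it was 1.80 with an edgeR adjusted p of 0.0744, and without the hippocampal libraries of rats 3 and 8 it was 1.42 with an adjusted p of 0.0946. Leaving out rat 2, 3, 4, 8, 9 or 10 from all areas also ended the call, with edgeR adjusted p from 0.0577 to 0.127. The thalamic Gfap effect exceeded the hippocampal one by 1.43 (SE 0.38, edgeR adjusted p = 0.0815), and this passed without rat 1 (1.63, edgeR adjusted p = 0.0485) or rat 6 (1.76, edgeR adjusted p = 0.00137). Without the hippocampal libraries of rats 3 and 8 it was 1.05 (edgeR adjusted p = 0.238). Between cortex and thalamus the Gfap effect differed by 0.37 (95% interval -0.40 to 1.15, edgeR adjusted p = 0.863), an interval that holds differences of either sign, and without rat 6 the difference was 0.10.

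For Vim, the estimate of the cortical effect was above that of the thalamic one by 0.88 (95% interval -0.02 to 1.79, edgeR adjusted p = 0.522), or by 0.47 without rat 1. It was above the hippocampal estimate by 0.96 (95% interval 0.05 to 1.87, edgeR adjusted p = 0.339), or by 0.53 without the hippocampal libraries of rats 3 and 8 (edgeR adjusted p = 0.729). The thalamic and hippocampal Vim effects differed by 0.08 (95% interval -0.83 to 0.99, edgeR adjusted p = 0.962), and without the hippocampal libraries of rats 3 and 8 the difference was -0.35. With a rat left out it ranged from -0.25 to 0.51. None of these passed. S100b effects differed by -0.12 between cortex and thalamus, 0.25 between cortex and hippocampus and 0.37 between thalamus and hippocampus, with edgeR adjusted p from 0.407 to 0.945. With a rat left out, these differences ranged from -0.34 (without rat 2) to -0.03 (without rat 8), from 0.17 (without rat 8) to 0.31 and from 0.19 (without rat 8) to 0.54. Without the hippocampal libraries of rats 3 and 8, the S100b differences from the hippocampus were 0.16 for the cortex and 0.28 for the thalamus. Of all 18040 genes, 0.582% were called for cortex minus thalamus, 0.449% for cortex minus hippocampus and 0.322% for thalamus minus hippocampus. The methods of the study give a longer read and another instrument for the thalamus while the labels give a single instrument and read length, so, if the methods hold, thalamic tissue and thalamic sequencing cannot be told apart where levels are compared between areas. Both sources give the sham and TBI libraries of an area the same instrument.

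In sham-operated rats, the 3 genes had different orders over the areas. For these comparisons the 15 sham libraries were scaled together. Gfap was lowest in the cortex, at 446, 341, 265, 270 and 358 CPM in rats 1 to 5. It was at 802, 499, 574, 655 and 592 CPM in the thalamus and at 844, 1004, 1776, 950 and 983 CPM in the hippocampus. The groups did not overlap, and the order of cortex, thalamus and hippocampus held in each of the 5 rats. The share of all genes that did the same was not counted. The thalamus was 1.86-fold above the cortex (log2 difference 0.89, SE 0.19, edgeR adjusted p = 0.000405), and the hippocampus was 3.31-fold above the cortex (1.73, SE 0.19, edgeR adjusted p = 1.25e-06) and 1.78-fold above the thalamus (0.83, SE 0.19, edgeR adjusted p = 0.000813). Without the hippocampal library of rat 3, which was the highest, the hippocampal excess was 1.49 over cortex (edgeR adjusted p = 7.25e-07) and 0.60 over thalamus (edgeR adjusted p = 0.00212).

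S100b had another order, with the thalamus highest. Its level in sham-operated rats 1 to 5 was 992, 829, 933, 1098 and 1078 CPM in the cortex, 1429, 2450, 1573, 1560 and 1505 CPM in the thalamus and 718, 759, 864, 811 and 684 CPM in the hippocampus. Each rat had its highest value in the thalamus. The thalamus was 1.73-fold above the cortex (log2 difference 0.79, SE 0.13, edgeR adjusted p = 3.34e-05) and 2.22-fold above the hippocampus (edgeR adjusted p = 4.15e-07). Hippocampus and cortex overlapped, with the hippocampus lower in every rat (log2 difference -0.36, SE 0.13, edgeR adjusted p = 0.0323), a call that was lost without rat 1, 4 or 5 (edgeR adjusted p up to 0.15). Without the hippocampal library of rat 3, it was -0.41 against the cortex (edgeR adjusted p = 0.0303) and -1.20 against the thalamus.

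Vim overlapped between all pairs of areas in sham-operated rats. Its level in rats 1 to 5 was 66.9, 105, 69.5, 56.5 and 108 CPM in the cortex, 101, 32.6, 38.9, 61.6 and 38.7 CPM in the thalamus and 34.2, 45.3, 71.4, 41.3 and 32.8 CPM in the hippocampus. Rat 1 was the highest in the thalamus and rat 3 in the hippocampus. The hippocampus was lower than the cortex by a log2 difference of -0.85 (SE 0.32, edgeR adjusted p = 0.0429), a call that was lost with the rat as a block (-0.87, edgeR adjusted p = 0.101) and without rat 2, 4 or 5 (edgeR adjusted p up to 0.185). Without the hippocampal library of rat 3 it was -1.08 (edgeR adjusted p = 0.0137). The thalamus was not called against the cortex (-0.57, edgeR adjusted p = 0.118) or the hippocampus (hippocampus minus thalamus -0.28, edgeR adjusted p = 0.458). Without rat 1, the thalamus was called lower than the cortex (-1.01, edgeR adjusted p = 0.00259) and hippocampus minus thalamus turned to 0.17. Without the hippocampal library of rat 3, hippocampus minus thalamus was -0.51 (edgeR adjusted p = 0.163). The background for these calls was high: 70.8% of 17315 genes were called between thalamus and cortex, 44.4% between hippocampus and cortex and 67.6% between hippocampus and thalamus, so calls of Gfap and S100b in sham tissue do not set them apart from other genes. For groups without overlap and for orders held in every rat, the share over all genes was not counted, and these are descriptions only.

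**Figure D4:**
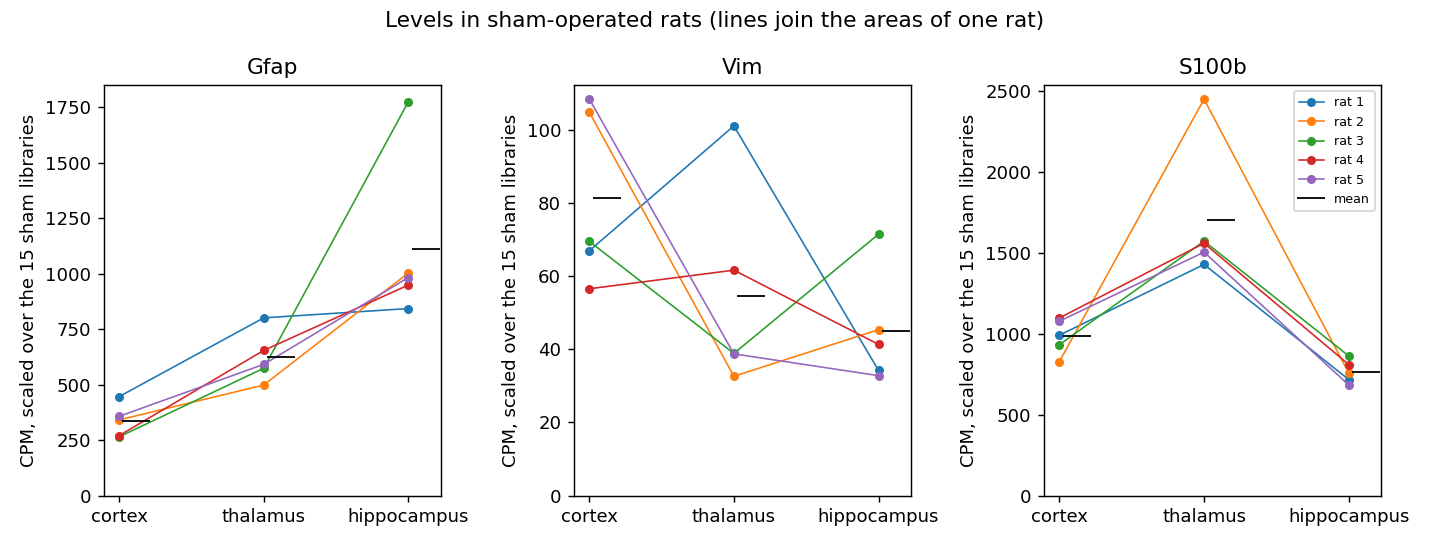
Level of Gfap, Vim and S100b in sham-operated rats (y axis, CPM scaled over the 15 sham libraries), with lines joining the areas of each rat and horizontal bars for means of 5 rats. Gfap climbs from cortex to hippocampus and S100b peaks in the thalamus in every rat, and the lines of Vim cross.

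The ratio of counts of a pair of genes within a library does not depend on the scaling between libraries. These ratios were described with no test. In the cortex the log2 ratio of S100b to Gfap was 1.57 ± 0.36 in sham and -0.62 ± 0.28 after TBI (SD, n = 5 each). It fell by 2.20 on the log2 scale, and the groups did not overlap. This fall restates the larger rise of Gfap (log2 fold change 2.65) than of S100b (0.47). The share of all genes whose ratio to Gfap separated the groups was not counted. In the thalamus the ratio was 1.44 ± 0.54 in sham and -0.13 ± 0.50 after TBI, with TBI rat 6 at 0.65 and the groups still apart. In the hippocampus it was -0.49 ± 0.33 and -1.11 ± 0.36, and the groups overlapped, with sham-operated rat 3 lowest in sham and TBI rat 8 highest in TBI. Without these libraries it was -0.35 ± 0.14 in sham and -1.26 ± 0.16 after TBI (SD, n = 4 each), with no overlap.

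The log2 ratio of Vim to Gfap, the filament genes, had overlapping groups in every area. It was -2.07 ± 0.44 in sham and -2.51 ± 0.23 after TBI in the cortex, -3.63 ± 0.42 and -4.32 ± 0.62 in the thalamus, and -4.63 ± 0.17 and -4.31 ± 0.32 in the hippocampus (SD, n = 5 each). The mean was lower after TBI in cortex and thalamus and higher in the hippocampus. Without rats 3 and 8 the hippocampal ratio was -4.63 ± 0.20 and -4.22 ± 0.30 (SD, n = 4 each), and the groups still overlapped. The log2 ratio of S100b to Vim was 3.64 ± 0.51 in sham and 1.89 ± 0.42 after TBI in the cortex, without overlap. It was 5.07 ± 0.89 and 4.19 ± 0.24 in the thalamus and 4.15 ± 0.33 and 3.19 ± 0.64 in the hippocampus, with overlap (SD, n = 5 each). Without rats 3 and 8 the hippocampal groups were apart, at 4.28 ± 0.15 and 2.96 ± 0.42 (SD, n = 4 each).

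**Figure D5:**
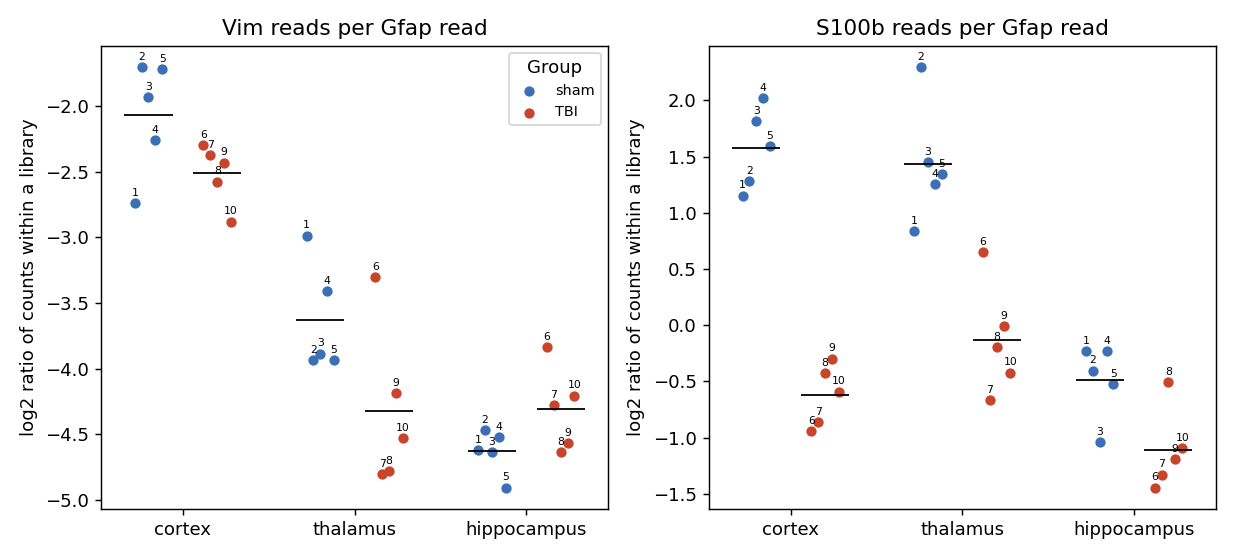
Log2 ratio of counts within each library (y axis) of Vim to Gfap and of S100b to Gfap by brain area, with points numbered by rat (blue sham, red TBI) and bars for group means of 5 rats. The ratio of S100b to Gfap has sham and TBI apart in cortex and thalamus, and the ratio of Vim to Gfap overlaps in every area.

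The genes whose pattern was most like each member were found by the root mean square difference of log2 CPM over the 30 libraries, each centered on the sham mean of its area, among 15286 genes tested in all areas at a mean of 1 CPM or more. This describes these libraries, which share rats, areas and injury. Nearest to Gfap was ENSRNOG00000023546 (difference 0.33, against a median of 1.52 over all genes), with log2 fold changes of 2.26 in the cortex, 2.46 in the thalamus and 0.65 in the hippocampus. Nearest to Vim was ENSRNOG00000013720 (difference 0.26, median 1.30), with log2 fold changes of 1.95, 1.24 and 0.96 in the same order. Vim was the 18th nearest gene to Gfap (0.51) and Gfap the 30th nearest to Vim, whereas S100b was the 1076th nearest to Gfap (1.19) and the 1342nd nearest to Vim. This measure takes in the size of a change as well as its pattern, so a gene that changes little lies far from genes that change several fold; ranked from S100b, Gfap was the 15211th and Vim the 15146th nearest gene. Over the 28 libraries without hippocampal rats 3 and 8, the same identifiers were nearest to Gfap and Vim, and the ranks between Gfap and Vim were 18 and 30.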

How the data were processed

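mRNA of 3 brain areas of 10 rats was sequenced (30 libraries). The authors aligned reads to RN5 (Rnor_5.0) with STAR, and the values deposited by the authors are raw read counts for each Ensembl gene in 1 table per area. R 3.1.0 and DESeq2 are also in the submitters' notes. The counting tool, the use of strand and the annotation release are not given in the sources used here. Column names gave the sample of every column, and 0 were left unused. The study discarded 2 hippocampal libraries of sham-operated rats for low alignment without naming them, so all 10 were used here and every hippocampal comparison with 5 sham libraries holds them.

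The software was edgeR 4.0.16, DESeq2 1.42.0 and limma 3.58.1 under R 4.3.3. Genes were kept by filterByExpr (minimum count 10, minimum total 15), scaled by TMM and tested per area by edgeR's quasi-likelihood test (robust), with p-values adjusted over all genes by Benjamini-Hochberg and a threshold of 0.05. Sham levels were compared in 1 fit of 15 libraries and TBI effects between areas in 1 fit of 30. A prior count of 3 entered log2 CPM. Replicates are separate rats, at 21992859 to 31799879 counts per library. The edgeR fits were also run on simulated counts, with rates of recovery not reported here. The simulated libraries were independent, so they held no pairing by rat and no library that went against its label.

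The 4 genes, the marker lists and the motifs were chosen with earlier results of these data known. All 4 genes were to be named, with the 2 genes most like each. The tables hold identifiers without names, and the table of 47357 gene names held 0 Ensembl identifiers, so marker lists were not analysed here and, of the genes most like a member, only identifiers nearest to Gfap and Vim are printed. Alternatives were DESeq2, RLE scaling, no filter, limma's voom with quality weights, 1 fit for all areas, a library size without the most counted genes, hippocampal libraries or single rats left out, and the rat as a block. Those chosen after seeing the data were the hippocampal libraries whose column names carry the tag FC120, DESeq2 without rats 3 and 8, the interaction fitted per pair of areas, and ratios and nearest genes without hippocampal rats 3 and 8. Areas came from the same rats, which pairs the libraries; the mean correlation of deviations of the same rat was 0.0579, 0.122 and 0.0384 for the 3 pairs of areas, against -0.00699, -0.0135 and -0.00428 between rats. No libraries were duplicates (the smallest chi-square divided by its degrees of freedom was 15.1).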

Additional observations from a re-analysis of the deposited data

Results flagged for a closer look

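Of the 18 groups of 5 libraries that could be examined (3 genes), 2 held a library far from the others. The 18 groups share libraries across the 3 genes, and no rate by chance was estimated. Gfap was at 1721 CPM in the hippocampus of sham-operated rat 3, above the other sham libraries at 818 to 974 CPM. This is one of the libraries that went against its label at other genes. S100b was at 2940 CPM in the thalamus of sham-operated rat 2, above the other sham libraries at 1787 to 1950 CPM. The effect of TBI on Gfap was larger in the cortex than in the hippocampus by 1.81 on the log2 scale (edgeR adjusted p = 0.0243), the 1 called difference of 9 tested. It was not called with the rat as a block or without the hippocampal libraries of rats 3 and 8. With a rat left out, the call was lost in 6 of 10 fits. The call was kept with DESeq2 (DESeq2 adjusted p = 0.000599) and with RLE scaling (edgeR adjusted p = 0.0234). It was also kept without a filter (edgeR adjusted p = 0.0378) and fitted per pair of areas (edgeR adjusted p = 0.00466).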

How the results depend on the processing

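Of 396 values of the 3 genes compared under another setting, 349 kept their direction and side of the threshold. All cortical effects of TBI did so under every setting run, with log2 fold changes of 2.58 to 2.79 for Gfap, 2.10 to 2.35 for Vim and 0.41 to 0.52 for S100b with a rat left out. The cause of the changes below was not tested, other than that fewer libraries entered where some were left out.

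In the thalamus, S100b was called with DESeq2 (0.59), voom (0.69) and 1 fit for all areas (0.56), and the genes called numbered 934 in the main analysis, 1994 with DESeq2, 2671 with voom and 3459 with 1 fit. With a rat left out they ranged from 0 to 2421, and log2 fold changes from 2.11 to 2.51 for Gfap, 1.17 to 1.68 for Vim and 0.45 to 0.75 for S100b. In the hippocampus, genes called numbered 41 with DESeq2, 263 without rats 3 and 8, 82 without rats 3, 4, 5 and 8, 518 with DESeq2 without rats 3 and 8, and 0 to 1 with a rat left out. Gfap was called without rats 3 and 8 (1.20 with edgeR and 1.20 with DESeq2) and without rats 3, 4, 5 and 8 (1.24), and Vim without rats 3 and 8 (1.65 with edgeR and 1.65 with DESeq2) but not without rats 3, 4, 5 and 8 (1.61). In the hippocampal libraries whose column names carry the tag FC120, which the sources used here do not explain, Gfap was at 0.65, Vim at 0.99 and S100b at 0.08, none called.

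Sham Vim in hippocampus minus cortex lost its call without a filter (-0.86), with the replicate block (-0.87) and without hippocampal rats 4 and 5 (-0.70), and S100b lost it without the same libraries (-0.35). With a rat left out, the difference ranged from -1.14 to -0.64 for Vim and from -0.43 to -0.29 for S100b; Vim ranged from -1.01 to -0.35 in thalamus minus cortex and from -0.58 to 0.17 in hippocampus minus thalamus.

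For TBI effects between areas, genes called for cortex minus thalamus, cortex minus hippocampus and thalamus minus hippocampus numbered 105, 81 and 58, and 270, 331 and 343 with DESeq2. With the replicate block they numbered 49 for cortex minus hippocampus and 31 for thalamus minus hippocampus, and without the hippocampal libraries of rats 3 and 8 they numbered 26 and 0. Fits per pair of areas gave 537 and 0, and no filter gave 18 for thalamus minus hippocampus. With a rat left out the ranges were 65 to 136, 14 to 116 and 0 to 1402. Gfap in cortex minus hippocampus lost its call with the block (1.80) and without rats 3 and 8 (1.42), and ranged from 1.501 to 2.02 with a rat left out. In thalamus minus hippocampus, Gfap was called with DESeq2 (1.44) and ranged from 1.17 to 1.76, and Vim turned negative without rats 3 and 8 (-0.35) and ranged from -0.25 to 0.51, with -0.07 without rat 2, -0.25 without rat 3, -0.14 without rat 8 and -0.06 without rat 9. The block changed no other call of the 3 genes.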
